A study of Mus musculus with 16 samples.

Results

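The RNAs described here are the protein-coding RNAs (pcRNAs) of splicing factor and RNA-binding protein genes. They were taken by symbol, as the families Srsf, Tra2, Hnrnp, Ptbp, Khdrbs, Qk, Rbm, Celf, Rbfox, Elavl, Mbnl, Sf3a, Sf3b, Prpf and Ddx. Of 10736 pcRNAs in the deposited tables, 129 were members, 123 in Input and 119 in H3K27me3-RADIP, with 113 in both. The data come from PGK12.1 mouse embryonic stem cells (mESCs) fixed with 1% formaldehyde. In RADIP, RNA is ligated to the chromatin DNA beside it by way of a bridge adaptor, and chimeras are pulled down with an antibody, here against the histone mark H3K27me3. Input libraries were made from a part of the same lysate, kept without antibody selection. The labels give no other difference in genotype or treatment between the groups. The labels list 8 libraries per condition, which the authors merged into 1 table for each condition, holding RNA–DNA pairs that passed a significance limit. The study counts fewer biological replicates than libraries, and which libraries form a replicate is not given in the labels.

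Splicing removes introns from nascent RNA while much of that RNA is still at its gene. SR proteins and Tra2 proteins bind exons and promote their inclusion, hnRNPs coat nascent RNA and often repress exons, and the Rbfox, Celf, Mbnl, Elavl, Qk, Khdrbs and Ptbp families give splicing its cell type patterns. Sf3a and Sf3b proteins belong to the U2 particle of the spliceosome, most Prpf proteins to its other complexes, and most Ddx proteins are RNA helicases with roles from splicing to ribosome assembly. What was measured here is where the RNAs of these genes met chromatin, not the proteins they encode. H3K27me3 is laid down by PRC2 and is known in mESCs for marking the genes of developmental regulators.

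The tables held 1305107 pairs for Input and 1415135 for H3K27me3-RADIP. Each line was 1 pair, and a pair was listed only where the combination of its RNA and its 25-kb DNA bin had a q-value of at most 0.1. Every combination of the RNAs described here held at least 7 pairs, so a combination or RNA that does not appear is "not listed", which is not the same as absent. With 1 merged table per condition there was no replicate error and no test between conditions. Intervals are exact 95% Clopper–Pearson intervals or, for differences of shares, normal intervals, and all cover counting error only. Of the pairs of these RNAs, 6.31% in Input and 10.1% in H3K27me3-RADIP had the same RNA and DNA tag positions as an earlier one, and copies made by amplification cannot be told from separate molecules. Of 11 embryonic stem cell marker genes, 6 were listed in Input and 7 in H3K27me3-RADIP, led by Esrrb with 2388 and 2500 pairs, while Pou5f1, Nanog, Tdgf1 and Dppa4 were in neither table. Of 5 neural marker genes, 2 and 3 were listed, Rbfox3, which is itself one of the RNAs described here, among them. Of 4 endoderm genes, 2 were listed in both tables, with 38 and 56 pairs, and of 5 fibroblast feeder genes, 0 and 1.

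The RNA side of a pair was deposited as an interval of 24 bases. Whether that interval is the RNA tag itself or a window around the end of a tag was not settled from the files, so the sequences printed here are genomic letters at the deposited position rather than the letters of a read. Most RNA positions of these genes were joined to a single DNA position (94.4% of the 15499 Input positions and 94.8% of the 14919 H3K27me3-RADIP ones). A few positions recurred with 5 or more DNA positions, 31 in Input and 29 in H3K27me3-RADIP. The most recurrent were exonic, in the 5′ UTR of Rbm39 (22 DNA positions in Input and 14 in H3K27me3-RADIP), the 3′ UTR of Tra2b (16 and 2) and the 5′ UTR of Qk (9 and 11). Some of the recurrent intronic positions are given below, each with 5 or more DNA positions in at least 1 table, and they are shown because each is a single intronic site seen with several stretches of chromatin. They are written 5′ to 3′ on the RNA's strand, with T for U, from the mm10 genome, and the capitals mark the middle pair of bases described after them.
Hnrnpf intron, chr6:117921754-117921777, plus strand: cagtgagattttTAcctagatatt
Hnrnpf intron, chr6:117912403-117912426, plus strand: gttactatagatTTcttagttctt
Tra2b intron, chr16:22265683-22265706, minus strand: caccctgctacTTcttctaggcct
Qk intron, chr17:10279092-10279115, minus strand: cctatcatgtgTGaggcacttggt
Ddx31 intron, chr2:28899096-28899119, plus strand: gtaggaggaagcCAtgaatgcctg
Rbm19 intron, chr5:120184306-120184329, plus strand: tgtgtgggggggTGgggctgcacc

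The first Hnrnpf position was joined to 6 DNA positions in 4 bins in Input and to 9 in 7 bins in H3K27me3-RADIP. The Rbm19 position had 3 DNA positions in Input and 8 in H3K27me3-RADIP, and the Tra2b position went the other way, with 8 and 4. The Qk position had 7 and 4, and the Ddx31 position 6 and 5. Base use was uneven in the middle of the intervals. On the plus strand, T made up 36.7% at base 13 and A 36.3% at base 14 in Input, against 27.6% to 30.8% and 22.8% to 25.4% over bases 1 to 9 and 19 to 24. On the minus strand the same letters stood 1 base earlier, with T at 36.9% at base 12 and A at 39.6% at base 13. H3K27me3-RADIP gave 36.8% and 36.6% on the plus strand and 39.1% and 39.8% on the minus strand. The pattern was one of the tables as a whole. In Input, all pcRNAs had 36.7% and 37.5% on the plus strand and 36.6% and 38.1% on the minus strand. These values came from a random sample of their positions, 26400 on the plus strand and 23600 on the minus strand.

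Together these RNAs gave 17861 pairs in Input, 1.37% of the table (1.35–1.39%), and 17781 in H3K27me3-RADIP, 1.26% (1.24–1.27%). No pair with a DNA tag on another chromosome was listed for them in either table, where all pcRNAs had 37 of 1261178 and 341 of 1359456 (0.00293% and 0.0251%). Rbfox2, a splicing regulator with a gene of 228 kb on chromosome 15, had the most pairs in both tables, 2146 in Input and 2437 in H3K27me3-RADIP. It reached 84 and 105 bins. Qk, which encodes the STAR-domain protein Quaking, had 1194 and 1200 pairs in 53 and 70 bins. Rbm19, whose product acts in ribosome assembly, had 818 Input pairs in 30 bins and 1393 H3K27me3-RADIP pairs in 46 bins. Qk was second in Input and Rbm19 in H3K27me3-RADIP. Mbnl2 had 798 and 868 pairs, next after these 3 in both tables. Rbm39, a splicing co-activator, came after Mbnl2 in Input with 528 pairs and was further down in H3K27me3-RADIP with 332. Rbfox1 had 526 and 686 pairs and Celf2 525 and 564.

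Long genes gave more pairs. Across the 91 RNAs that were in both tables with at least 50 pairs over both, the Spearman correlation of gene length with pairs was 0.44 in Input and 0.39 in H3K27me3-RADIP, and that with the ratio between the tables was 0.02. These points share the same merged tables, and the values are descriptions. Per length the order changed. Hnrnpab, a hnRNP gene of 6.75 kb, had the highest level, 5453 pairs per 100 kb of gene in Input and 4920 in H3K27me3-RADIP, and Phykpl overlaps it on the opposite strand. Hnrnpf followed with 2008 and 2107 pairs per 100 kb of gene, while Rbfox1, with a gene of 1526 kb, had 34.5 and 44.9.

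**Figure D1:**
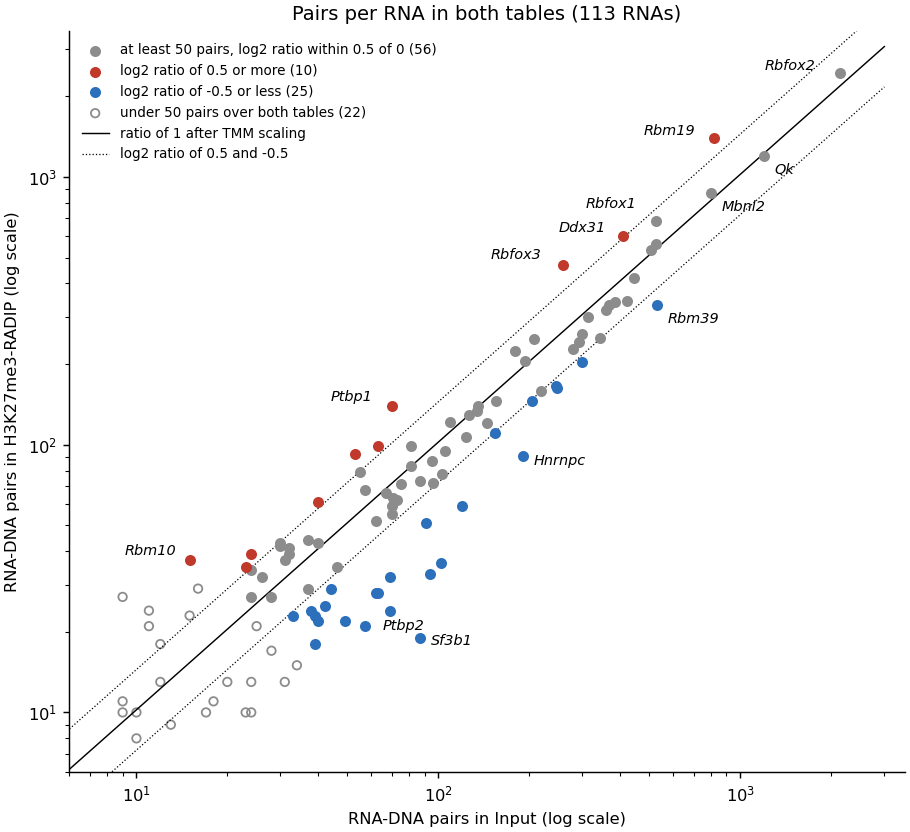
RNA–DNA pairs of each RNA in Input (x axis) and H3K27me3-RADIP (y axis), both on log scales, for the 113 RNAs in both tables. Rbm19, Rbfox3, Ddx31 and Ptbp1 lie above the upper dotted line, Rbm39, Hnrnpc, Ptbp2 and Sf3b1 below the lower one, and Rbfox2 and Qk lie close to the line of equal level after scaling.

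The comparison of the tables asks which of these RNAs made up more or less of the pairs listed after H3K27me3 selection than of those listed in Input. Pairs per RNA were scaled by TMM over the pcRNAs in both tables, and an RNA with at least 50 pairs was called higher or lower where its log2 ratio of H3K27me3-RADIP over Input was at least 0.5 in size. With no spread between replicates these calls are sizes, not tests. Of 91 RNAs, 10 were higher and 25 were lower (27.5%). Over all 5359 pcRNAs that met the same minimum, 17.7% were higher and 19.9% were lower. The median log2 ratio of the 91 was -0.18, against 0.01 over all, with 35 above 0 and 56 below. Where the counting interval also had to lie off 0, 7 were higher and 22 lower (7.69% and 24.2%, against 15.1% and 16.8% over all). At the upper limit, Ddx31 at 0.52 was just inside and Ddx6 at 0.49 just outside. Mbnl1 was just inside and Hnrnpd just outside the lower limit, both at -0.50 after rounding.

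The 10 higher RNAs were Rbm10, Ptbp1, Rbfox3, Ddx54, Rbm19, Ddx11, Ddx17, Rbm38, Prpf31 and Ddx31. Rbm10, an X-linked splicing regulator, had the highest ratio, 1.27 (0.37 to 2.24), from 15 Input pairs in 1 bin and 37 H3K27me3-RADIP pairs in 3 bins. All its pairs came from introns in both tables. Rbm19 had the narrowest interval of the 10, with a log2 ratio of 0.74 (0.61 to 0.86). Rbfox3, which encodes the neuronal nuclear antigen NeuN, went from 259 to 470 pairs, a log2 ratio of 0.83 (0.61 to 1.05). Ddx54 went from 53 to 92 pairs (0.76, 0.26 to 1.28) and Ddx11, a DNA helicase of sister chromatid cohesion, from 24 to 39 (0.67, -0.10 to 1.47). The intervals of Ddx11, Rbm38 and Prpf31 reached below 0. Over RNA and bin combinations listed in both tables, Rbm10 (0.39), Ddx11 (0.42), Ddx17 (0.25), Rbm38 (0.19) and Ddx31 (0.48) fell short of the limit, and Ptbp1 stayed past it at 0.55 (0.10 to 1.02).

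At the lower end, Sf3b1, the U2 particle protein at the branch point, fell from 87 pairs in 4 bins to 19 pairs in 1 bin, a log2 ratio of -2.23 (-3.03 to -1.50). Ptbp2, the neural relative of Ptbp1, went from 69 to 24 pairs (-1.56, -2.29 to -0.87) and Srsf11 from 94 to 33 (-1.54, -2.16 to -0.96). Ddx46, a helicase of the U2 particle, went from 102 to 36 (-1.53), Srsf1 from 57 to 21 (-1.47) and Rbm41 from 63 to 28 (-1.20). These ratios include bins that were listed in 1 table alone. Over combinations in both tables, the ratio was -0.91 (-1.79 to -0.07) for Sf3b1, -0.57 (-1.38 to 0.21) for Ptbp2, -0.95 (-1.60 to -0.32) for Srsf11 and -0.04 (-1.16 to 1.07) for Rbm41.

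**Figure D2:**
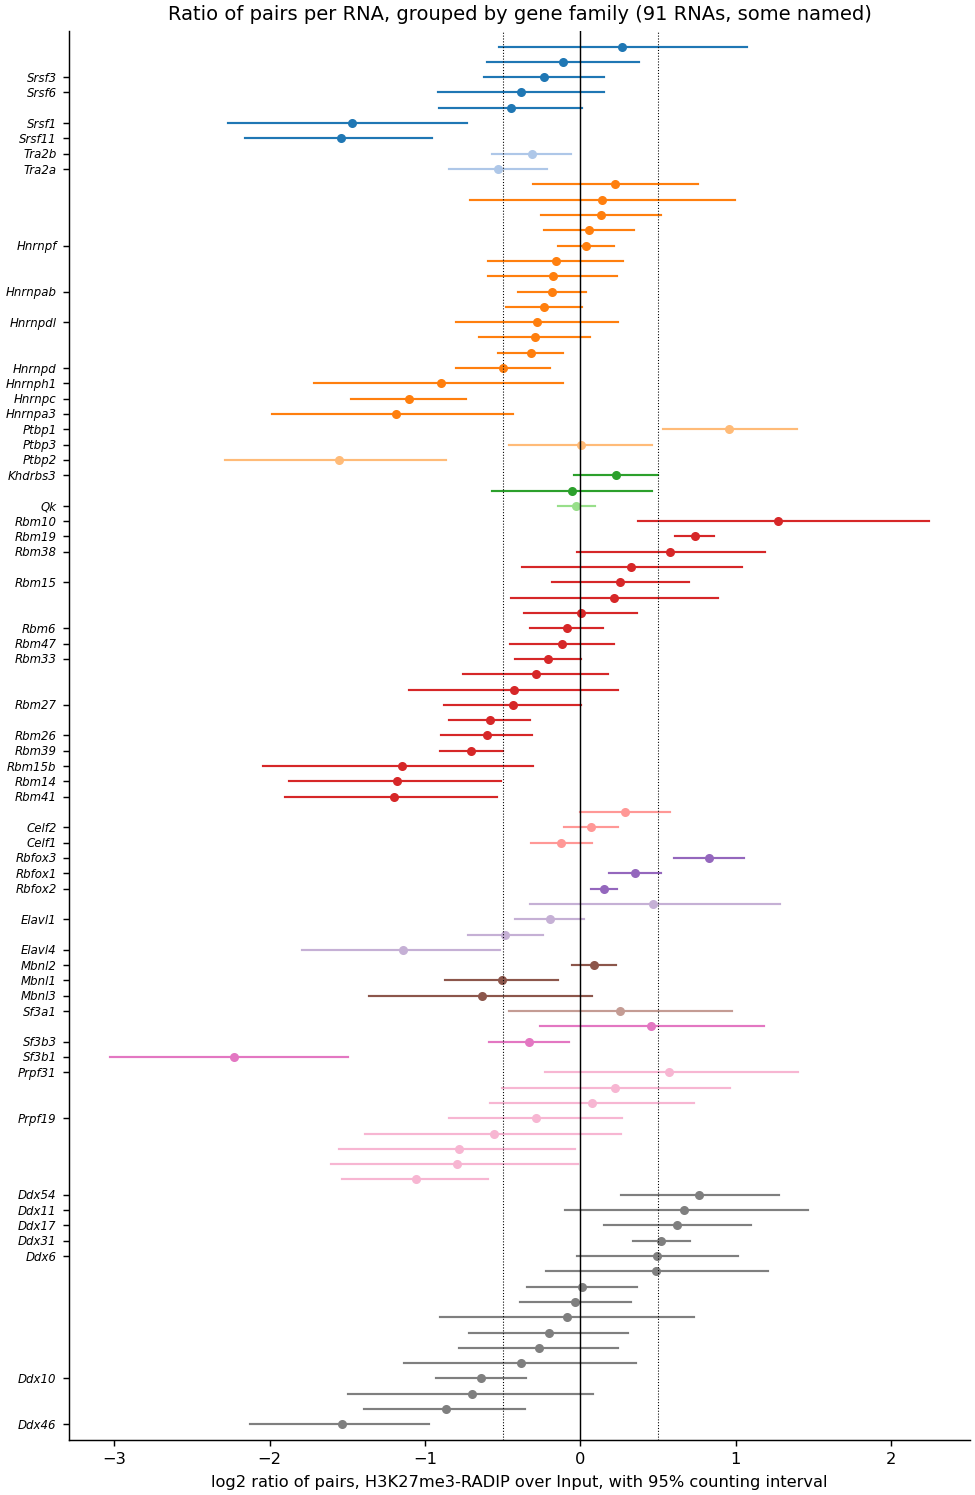
Log2 ratio of pairs, H3K27me3-RADIP over Input (x axis), for the 91 RNAs with at least 50 pairs, grouped and coloured by gene family and sorted within each. RNAs described in the text are named at the left. Points are ratios after TMM scaling, bars are 95% counting intervals and dotted lines mark 0.5 and -0.5. The Rbfox RNAs lie above 0, Ptbp1 and Ptbp2 lie on opposite sides, and no Srsf or Hnrnp RNA lies above 0.5.

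Single families had few RNAs, and their counts stand beside 17.7% higher and 19.9% lower over all pcRNAs. Among the exon-promoting factors, none of the 7 Srsf RNAs with enough pairs was higher and 2 were lower (28.6%), Srsf1 and Srsf11. Their median log2 ratio was -0.38. Srsf3 had the most pairs of the family, 123 in Input and 107 in H3K27me3-RADIP. Both Tra2 RNAs lay below 0. Tra2a went from 205 to 145 pairs (-0.53, -0.85 to -0.22), past the limit but at -0.26 over shared combinations, and Tra2b from 293 to 241 (-0.31, -0.57 to -0.06), within it.

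Of the 16 Hnrnp RNAs with enough pairs, none was higher and 3 were lower (18.8%, near the 19.9% over all), with a median of -0.21. Hnrnpf, which binds G-rich RNA, had the most pairs, 508 and 533. Hnrnpc, which binds U-rich stretches of nascent RNA, went from 191 to 91 pairs (-1.10, -1.48 to -0.73), and over shared combinations its ratio was -0.62 (-1.01 to -0.23). The other lower RNAs were Hnrnpa3 (49 to 22 pairs) and Hnrnph1 (40 to 22).

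The 3 Ptbp RNAs, from genes whose products repress exons at pyrimidine-rich sites, diverged. Ptbp1 went from 70 to 139 pairs, a log2 ratio of 0.96 (0.53 to 1.39), while Ptbp3 had 81 and 83 pairs. Ptbp2 was lower, as given above. The intervals of Ptbp1 and Ptbp2 did not overlap over all combinations, and overlapped over those in both tables.

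Cell type splicing regulators varied by family. All 3 Rbfox RNAs had ratios above 0, with a median of 0.35, though the interval of Rbfox2 reached below 0 with library totals (0.07, -0.02 to 0.15) and over shared combinations (0.06, -0.03 to 0.15). With TMM, the intervals of Rbfox1 (0.18 to 0.52) and Rbfox2 (0.07 to 0.24) lay below that of Rbfox3. With pairs at a q-value of at most 0.01, Rbfox1 was past the limit at 0.65. None of the 3 tested Celf RNAs passed the limit. Mbnl2 did not pass it either (0.09, -0.05 to 0.23), whereas Mbnl1 and Mbnl3 were lower, at 154 and 111 pairs and at 44 and 29 pairs. The interval of Mbnl3 reached above 0 (-0.63, -1.36 to 0.08), and Mbnl1 was at -0.48, within the limit, with repeated tag positions counted once. Of the Elavl RNAs, which encode Hu proteins of AU-rich RNA, the neuronal Elavl4 was lower, with 69 and 32 pairs but a ratio of -0.44 over shared combinations, and Elavl1, which most cells express, had 358 and 319. Khdrbs3, a STAR-domain relative of Quaking, had 208 and 249 pairs, with a ratio of 0.23 (-0.04 to 0.50).

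Of 19 Rbm RNAs with enough pairs, 3 were higher (15.8%, against 17.7% over all) and 6 were lower (31.6%, against 19.9%). The lower ones included Rbm39, at -0.70 (-0.90 to -0.50), and Rbm14 (62 to 28 pairs) and Rbm15b (39 to 18), which had every pair in coding sequence and UTRs. Over shared combinations Rbm15b was at -0.24 (-1.22 to 0.73), within the limit. Rbm15, a cofactor of RNA methylation, had 81 and 99 pairs and a ratio of 0.26 (-0.18 to 0.70), which turned to -0.43 over shared combinations. Of the core spliceosome genes, Sf3a1 had 32 and 39 pairs and Sf3b3 279 and 227. Of 8 tested Prpf RNAs, 4 were lower and 1 higher, counts that moved with the settings. Over shared combinations Prpf39 went from -0.79 to -0.28 and Prpf18 from -0.55 to -0.47, and with library totals Prpf31 went from 0.57 to 0.49, all within the limit. Of the 16 tested Ddx RNAs, 4 were higher and 4 lower, the latter with Ddx10 (248 to 163 pairs), which was at -0.32 (-0.67 to 0.03) over shared combinations. Ddx31, a nucleolar helicase, had the most pairs of that family, 410 and 602.

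RNAs listed in 1 table had few pairs. They were 7.75% of the 129 in Input alone and 4.65% in H3K27me3-RADIP alone, against 10.5% and 13.5% of all pcRNAs. In Input alone there were 10, led by Prpf38a with 22 pairs, Rbm4b with 13, Ddx43 with 12 and Hnrnpll and Sf3a2 with 10 each. In H3K27me3-RADIP alone there were 6, led by Khdrbs2 with 14 pairs, Ddx49 with 12, Rbm8a, of the exon junction complex, with 11 and Ddx50 with 9. No ratio is given for them, because the other table gives no value below 7 pairs per combination.

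RNA tags lay mostly in introns. Introns held 78.0% (77.4–78.6%) of Input pairs and 80.3% (79.7–80.9%) of H3K27me3-RADIP pairs, which differed by 2.30 points (1.45 to 3.14). For all pcRNAs it was 88.9% and 89.6%, a difference of 0.73 points. Coding sequence and UTRs together made up 16.1% and 14.5% of the pairs of these RNAs, against 8.61% and 8.11% for all pcRNAs. Within that, coding sequence went from 5.62% to 4.81%, the 3′ UTR from 7.70% to 7.36% and the 5′ UTR from 2.77% to 2.30%. The remaining 5.89% and 5.20% lay in exons of transcripts with no coding annotation.

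The difference in intron share depended on how RNAs were weighted. With each RNA of at least 50 pairs given the same weight, the mean share was 68.3% for Input and 67.0% for H3K27me3-RADIP, so the direction turned. The share was higher in H3K27me3-RADIP for 41 of the 91 RNAs, lower for 45 and equal for 5 (45.1% and 49.5%, against 50.8% and 47.3% of all pcRNAs). The exon share turned in the same way, from 23.9% to 24.2% with equal weights.

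Families differed more than the tables did. Srsf RNAs were the least intronic, at 45.4% in Input and 43.1% in H3K27me3-RADIP, and Rbfox RNAs the most, at 95.9% and 96.0%. Single RNAs spanned the whole range. Rbm14 had all of its 62 and 28 pairs in coding sequence and UTRs, and Srsf1 had 82.5% and 90.5% there. Rbm15 had 81.5% and 84.8%, Srsf6 81.4% and 70.9%, and Ddx17 65.1% and 68.7%. Prpf19 had 56.5% and 61.5%. Because only uniquely mapped tags were kept, exonic values of Hnrnp and Srsf genes with processed pseudogenes are uncertain. Unspliced and spliced RNA cannot be told apart by a tag inside 1 exon.

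**Figure D3:**
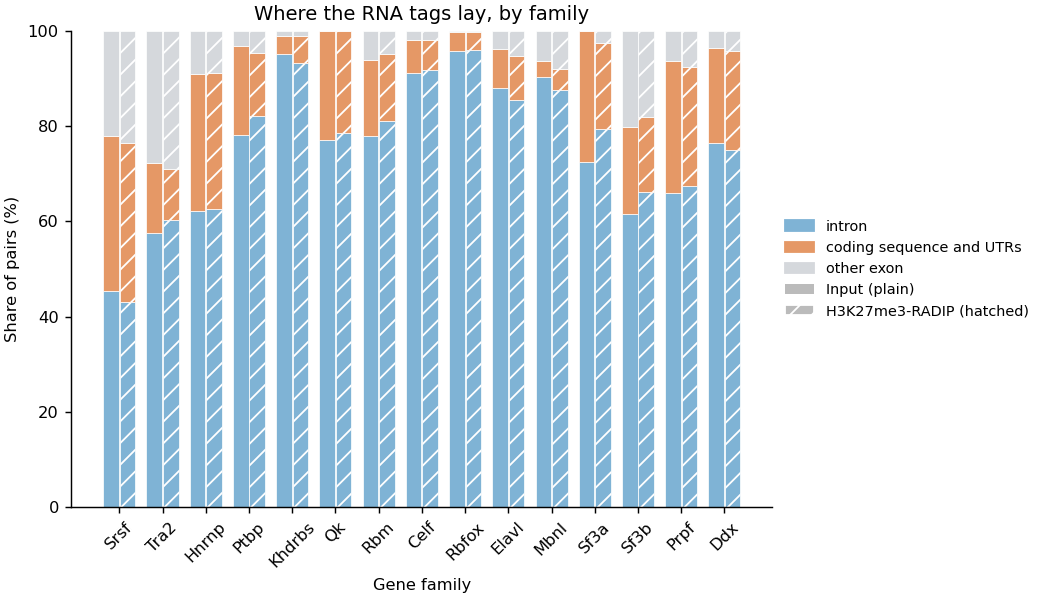
Share of pairs (y axis, %) by the annotation of the RNA tag, for each gene family (x axis), in Input (plain bars) and H3K27me3-RADIP (hatched bars). The Srsf bars are the least intronic, at 45.4% and 43.1%, and the Rbfox, Khdrbs and Celf bars exceed 90% in both tables.

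The DNA tags lay farther from the RNA tags in H3K27me3-RADIP. Their median distance went from 22.6 to 45.9 kb, a ratio of 2.03, against 44.4 and 68.8 kb for all pcRNAs, a ratio of 1.55. Over combinations listed in both tables the medians of these RNAs were 19.6 and 30.4 kb, a ratio of 1.55. The share of pairs over 100 kb was 25.6% (24.9–26.2%) and 35.9% (35.2–36.6%), higher by 10.3 points (9.36 to 11.3), and for all pcRNAs it was higher by 7.28 points (7.17 to 7.40). For these RNAs it was higher by 6.26 points (5.29 to 7.24) over combinations in both tables, and by 4.50 points, from 9.10% to 13.6%, with equal weight for each RNA. Pairs over 1 Mb made up 2.17% and 4.91%, and 4.48% and 7.04% for all pcRNAs. Tags from introns and from coding sequence and UTRs both shifted, from 28.8% to 39.1% over 100 kb for the former and from 14.1% to 23.5% for the latter. These shares were higher by 10.3 and 9.41 points, and for all pcRNAs by 7.31 and 5.55 points.

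Most of the single RNAs had the same direction. In H3K27me3-RADIP, 71 of the 91 RNAs had the longer median (78.0%, against 73.0% of all 5359 pcRNAs), and the median ratio was 1.55 for the 91 and 1.37 for all. Rbfox2 had the longest median, 158 and 283 kb, followed by Qk with 97.5 and 228 kb and Mbnl2 with 88.8 and 125 kb. Celf2 had 72.8 and 88.3 kb, and Rbm6, a relative of the tumour suppressor RBM5, had 59.3 and 92.7 kb. Rbm19 went from 55.8 to 116 kb and Ddx10 from 46.5 to 115 kb. Rbfox1 ran the other way, from 21.1 to 15.4 kb, and its DNA tags stayed within its own gene, 100% in Input and 98.0% in H3K27me3-RADIP. Ddx46, from 9.32 to 3.91 kb, and Rbm47, a regulator of RNA editing, from 36.0 to 23.8 kb, were also shorter.

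The share of DNA tags inside the RNA's own gene was 54.6% (53.8–55.3%) for Input and 42.5% (41.7–43.2%) for H3K27me3-RADIP, which differed by -12.1 points (-13.1 to -11.1). For all pcRNAs it was -8.28 points (-8.40 to -8.16). The share was lower in H3K27me3-RADIP for 74 of the 91 RNAs (81.3%, against 72.6% of all). Tra2b went from 34.8% to 17.0%, Hnrnpf from 41.1% to 20.3%, Qk from 38.9% to 19.2% and Ptbp1 from 58.6% to 33.1%. The share of DNA tags downstream of the RNA tag along the RNA's strand was 65.5% and 61.4%, against 61.1% and 60.1% for all pcRNAs. With equal weights it was 70.0% and 69.7%, and it was lower in H3K27me3-RADIP for 49 of the 91 RNAs (53.8%, against 51.3% of all). The share of RNA tags in the first 25% of the gene differed by -1.12 points (-2.04 to -0.19), from 28.1% in Input. For all pcRNAs that share differed by -0.39 points, from 26.8%.

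**Figure D4:**
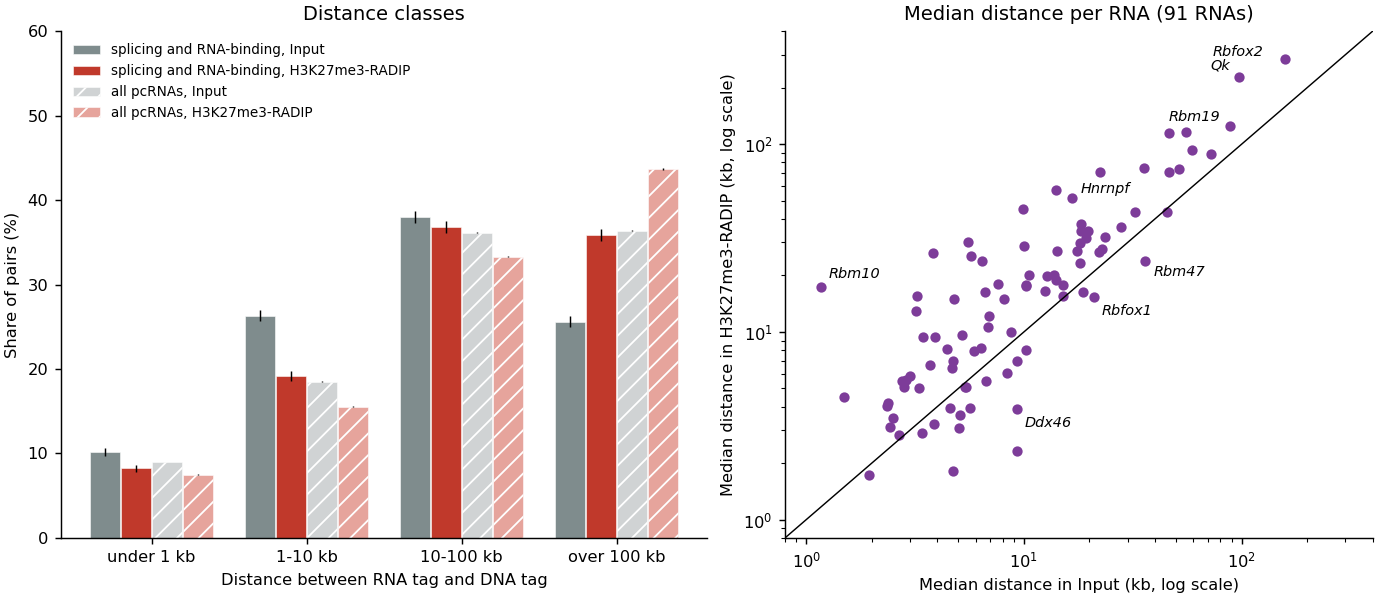
Left, share of pairs (y axis, %) by distance class for the splicing and RNA-binding RNAs and for all pcRNAs in both tables, with 95% counting intervals. Right, median distance per RNA in Input (x axis) and H3K27me3-RADIP (y axis) in kb on log scales for 91 RNAs, with the line of equality. The share over 100 kb is 25.6% in Input and 35.9% in H3K27me3-RADIP, and 71 of the points lie above the line.

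These RNAs formed 824 combinations with 25-kb bins in Input and 937 in H3K27me3-RADIP, with a median of 13 pairs each in both. The 658 combinations in both tables were 79.9% of the Input combinations and 70.2% of the H3K27me3-RADIP ones, close to 76.7% and 67.1% for all pcRNAs. Combinations with bins off the RNA's own gene numbered 445 for Input (54.0%) and 567 for H3K27me3-RADIP (60.5%). The number of bins was higher in H3K27me3-RADIP for 46 of the 91 RNAs, lower for 21 and equal for 24 (50.5% and 23.1% higher and lower, near 50.2% and 25.5% of all pcRNAs). A single bin was all that 33 RNAs had in Input and 30 in H3K27me3-RADIP, and this was not counted over all pcRNAs. For Qk, pairs in bins on its own gene went from 497 to 247 and those off it from 697 to 953, log2 ratios of -1.04 (-1.27 to -0.82) and 0.42 (0.28 to 0.56). Hnrnpf had 298 and 196 on the gene (-0.64, -0.90 to -0.37) and 210 and 337 off it (0.65, 0.40 to 0.91). Rbfox2 had 960 and 827 on the gene (-0.25, -0.38 to -0.11) and 1186 and 1610 off it (0.41, 0.30 to 0.52). Each of the 3 RNAs had a total within the limit, with fewer pairs on its gene and more off it. The on-gene pairs of Rbfox3 went from 259 to 424, a log2 ratio of 0.68 (0.45 to 0.91), and its 46 off-gene pairs were in H3K27me3-RADIP alone.

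The bins off the gene that held more pairs in H3K27me3-RADIP included starts of developmental regulator genes, and these were named after their values were seen. For Rbm19, the bin at the start of Lhx5, a LIM homeobox gene 321 kb downstream of the Rbm19 start, held 15 Input pairs and 69 H3K27me3-RADIP pairs, a log2 ratio of 2.17 (1.35 to 3.08). The Tbx5 bin, 279 kb upstream of Rbm19, held 17 and 30 pairs (0.79, -0.12 to 1.74), and the Tbx3 bin was not listed in Input and held 12 pairs in H3K27me3-RADIP. Both T-box genes act in limb and heart development. The bins on Rbm19 itself held 359 and 461 pairs, a log2 ratio of 0.33 (0.13 to 0.53), and those off it 459 and 932, a ratio of 0.99 (0.83 to 1.15).

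Rbm33 lies between En2 and Shh, a homeobox gene of the midbrain and a morphogen gene. Its total was 385 pairs in Input and 341 in H3K27me3-RADIP, and its bins on the gene went from 246 to 166 pairs, a log2 ratio of -0.60 (-0.89 to -0.31). The Shh bin went from 8 to 25 pairs (1.61, 0.42 to 2.97), the En2 bin from 12 to 22 (0.84, -0.24 to 1.99), and the bin of the motor neuron gene Mnx1, 1170 kb away, was not listed in Input and held 10 pairs in H3K27me3-RADIP. Rbm26 RNA, lower as a whole with 245 and 165 pairs, had 13 pairs in the Pou4f1 bin, which was not listed in Input, and Rbm27 had 9 in the Pou4f3 bin, also not listed in Input. For Rbfox2, the bin of Foxh1 held 9 and 19 pairs, and the bins of Sox10, a neural crest factor, and Wnt7b were listed in H3K27me3-RADIP alone, with 9 and 8 pairs.

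Other bins with more pairs held the start of no gene from the list of developmental regulators described below. The bin with Sstr3 and C1qtnf6 was listed for Rbfox2 in H3K27me3-RADIP alone with 24 pairs, and that with Elfn2 with 21. The bin with Elane and Cfd held 21 Ptbp1 pairs and was not listed in Input. The Celf1 pairs in the bin of Spi1, a blood cell factor gene, were 12 and 27. In the other direction, the bin of Acp2 and Nr1h3 held 19 Celf1 pairs in Input and was not listed in H3K27me3-RADIP.

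Over all members, 1.01% (0.77–1.29%) of 6054 pairs in bins off the own gene lay in Input in bins with the start of a developmental regulator gene, and 2.75% (2.41–3.13%) of 8211 in H3K27me3-RADIP. The difference was 1.74 points (1.31 to 2.18). All pcRNAs had 0.60% and 1.17%, a difference of 0.57 points (0.53 to 0.60). The list held 270 genes of homeobox, T-box, Fox, Sox, Gata, Pou, Zic, neurogenic, Wnt, Bmp, Fgf and Hedgehog families in 246 bins. Its families were picked once values of these RNAs were known, so the larger difference than for all pcRNAs cannot be read as their trait. The share rests on few combinations, 5 in Input and 11 in H3K27me3-RADIP, from 3 and 5 RNAs. The intervals count each pair in them as separate. Without Rbm19 the shares were 0.52% and 1.58%, a difference of 1.06 points (0.72 to 1.40). The other bins seen beforehand were still in that count.

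**Figure D5:**
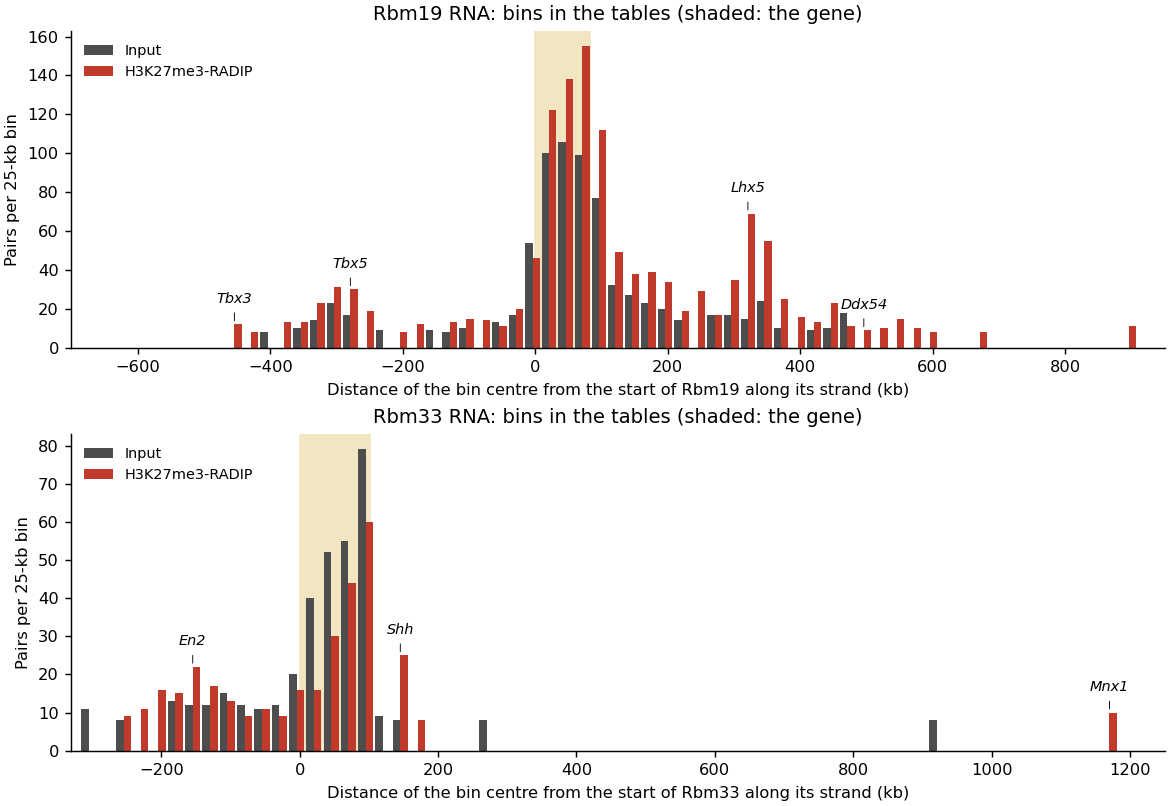
Pairs per 25-kb bin (y axis) against the distance of the bin centre from the start of the gene along its strand (x axis, kb) for Rbm19 (top) and Rbm33 (bottom) in Input and H3K27me3-RADIP, with the gene body shaded. Bins not listed have no bar, and 5 Rbm19 bins farther upstream are outside the axis. The Lhx5 bin holds 15 and 69 Rbm19 pairs and the Shh bin 8 and 25 Rbm33 pairs.

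Bins with the start of another of these genes were listed for 6 of the RNAs, at 24.1 to 496 kb from the RNA's own start. Rbm14 had 31 Input pairs and 9 H3K27me3-RADIP pairs in the bin with the start of Rbm4, its neighbour on chromosome 19, and a transcript that overlaps both genes is annotated there, so tags of the 2 genes may be shared. Hnrnpd had 26 and 13 pairs in the bin of its neighbour Hnrnpdl. Rbm39 had 12 and 11 in the bin of Rbm12, and Sf3b3 had 13 and 15 in the bin of Ddx19b, 191 kb away. Listed in H3K27me3-RADIP alone were 9 Sf3b3 pairs in the bin of Ddx19a, 10 Rbm4 pairs in the bin of Rbm4b and 9 Rbm19 pairs in the bin of Ddx54. The Rbm4b bin held 12 Rbm14 pairs in Input alone.

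A further 101 genes of splicing and RNA binding outside these families were followed as a list. Of them, 90 were listed in Input and 84 in H3K27me3-RADIP, with 14727 and 16351 pairs. No gene of the list was in H3K27me3-RADIP alone, where 13.5% of all pcRNAs were, against 10.5% in Input alone. Of 69 with enough pairs, 7 were higher (10.1%, against 17.7% over all) and 15 lower (21.7%, near the 19.9% over all), with a median log2 ratio of -0.21, against 0.01 over all. Msi2, which encodes the translation regulator Musashi-2, had the most pairs, 5402 in 137 bins and 7270 in 243 bins, with a log2 ratio of 0.40 (0.35 to 0.45). Without Msi2, the list had fewer pairs in H3K27me3-RADIP than in Input. Pcbp3 had 850 and 1052 pairs, Srpk2, a kinase of SR proteins, 577 and 435, the helicase gene Dhx9 484 and 305 and Rbms1 413 and 397. The highest ratios were those of Sart3 (91 and 196 pairs, 1.07), Srrm4, a neural splicing activator (32 and 68, 1.06), and Srpk1 (51 and 87, 0.74). In bins listed in both tables, these 3 RNAs had closer counts, 91 and 108, 19 and 21, and 51 and 57 pairs. The lowest were those of Aqr, an intron-binding helicase (114 and 51, -1.19), Snrpg (37 and 19, -0.99) and Smndc1 (74 and 39, -0.96). Their pairs in bins of both tables were 85 and 41, 37 and 19, and 66 and 31.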

How the data were processed

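Libraries of PGK12.1 mESCs were grouped by their labels into RADIP (RADICL-seq with H3K27me3 immunoprecipitation) and Input. The authors split RNA and DNA tags, mapped them to mm10 (the submitters' processing notes name BWA 0.7.15-r1140, STAR 2.5.0a and CASAVA 1.8.2), kept unique pairs, annotated RNA tags with GENCODE genes of a later release than the one used here, set DNA tags in 25-kb bins and merged the libraries. The deposited tables hold a p-value (not used here) and a q-value per combination of RNA and bin, from the authors' adapted version of the CHiCANE package, and combinations above a q-value of 0.1 are removed. The other columns deposited by the authors are tag positions, in the unit of bases, and annotation.

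Lines were counted per RNA name. Ratios used TMM (trims of 30% and 5%, factor 0.95) with conditional binomial intervals, and the code was tested on simulated data. Distances ran between tag centres. Gene bounds came from GENCODE M21, to which every gene identifier of these RNAs matched without its version, and overlaps from the same annotation. Python 3.11.15, numpy 2.4.6, pandas 2.3.3, scipy 1.17.1 and matplotlib 3.10.9 were used.

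Named RNAs were the 6 with the most pairs in each table, the 6 highest and lowest ratios with at least 50 pairs, the 4 with the most pairs in 1 table alone, the 5 longest median distances and 4 highest exon shares per table with at least 50 pairs in it, the top RNA of each family and, of the further list, the 5 with the most pairs per table and the 3 highest and lowest ratios. Some items that this rule names are not reported here, and others were named after their values were seen. The families, lists and rules were chosen with earlier results of these data known. Alternatives were a q-value limit of 0.01, repeated tag positions counted once, library totals, other minimums and limits, equal weights, and leaving out the RNA with the most pairs. Pairs in combinations of both tables and every alternative for bins of developmental regulators were added after seeing the data.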

Additional observations from a re-analysis of the deposited data

How the results depend on the processing

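No paired analysis was possible because the libraries were merged in the deposited tables and no column carries a replicate number. For the same reason no library could be left out. The median log2 ratio was below 0 under every alternative run for it, and the share of pairs of these RNAs was lower in H3K27me3-RADIP under each run for it. Calls, each beside the share over all pcRNAs in the same setting, were 35 of 91 as reported (37.5%), 37 of 91 with library totals (7 higher, 30 lower; 38.1%), 51 of 111 with a minimum of 20 pairs (16 and 35; 44.1%), 35 of 89 at a q-value of at most 0.01 (40.7%), 37 of 89 with repeated tag positions once (37.2%), 28 of 87 over combinations in both tables (6 and 22, of which 23 were among the 35 calls; 20.4%) and 29 of 91 with the interval off 0 (31.9%). A log2 limit of 1 left 13 of 91 (10.9%), of which 1 was higher. The median log2 ratio ran from -0.27 with library totals to -0.18. With equal weight for each RNA, the difference in intron share was -1.20 points and that in exon share 0.28 points, both of opposite sign to the pooled values, and the cause was not tested. Equal weights also gave 4.50 points for pairs over 100 kb and -0.27 points for downstream tags. Over combinations in both tables, the difference was 6.26 points for pairs over 100 kb and -8.70 points for tags inside the gene, and the ratio of median distances was 1.55. The share in bins of developmental regulators differed by 1.06 points without Rbm19. The other alternatives for these shares stayed within the counting interval. Among 44 single RNAs, ratios left their interval for 12 over combinations in both tables, for Rbfox2 with library totals (0.07) and for Rbfox1 at a q-value of at most 0.01 (0.65). RNAs under 50 pairs have intervals over 1 log2 unit wide, combinations under 7 pairs are not seen, and the spread between replicates is unknown.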
